A study of Homo sapiens with 5 samples.

Results

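A set of 245 H3K27ac peaks in HCT116 cells had signal far lower in the IFN-β group than in the control group, well past the general drop seen across all peaks. They were selected on measured values, as the peaks on chromosomes 1 to 22 and X with a mean log2 signal over all H3K27ac libraries (Conc) of 5 or more and a log2 difference, IFN-β minus control, of -1.2 or less. Of the 20087 peaks in the table, 8674 met the Conc minimum and are called well covered here, so the set was 2.82% of the well-covered peaks. Because the difference chose the peaks, that difference is given below as a description only. The questions asked of the set were where its peaks lie, which genes they mark, and how their sequence compares with that of the other 8429 well-covered peaks.

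The study profiled H3K27ac by ChIP-seq in a derivative of HCT116, a human colorectal carcinoma cell line, named CMV-osTIR1 RAD21-mAC. In that line RAD21, a cohesin subunit, carries a degron tag, and the plant F-box protein TIR1 that would target it is driven by the CMV promoter. All cultures, the input included, received 0.1% DMSO for 6 h, and the degron alleles and DMSO were therefore shared by both groups. The IFN-β group (2 libraries) was next exposed for 1 h to IFN-β at 1000 unit/ml, the control group (2 libraries) had no further treatment, and 1 input library was made, with 500000 cells in each precipitation. The sample names give 60 min for the IFN-β group and 0 min for the control group, so the groups may also differ by that time in culture, and the cytokine and the time cannot be told apart.

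H3K27ac is the acetylation of lysine 27 of histone H3, placed mainly by the related enzymes CBP and p300 and removed by histone deacetylases. It marks the nucleosomes beside active promoters and enhancers. IFN-β signals through its receptor to the transcription factor complex ISGF3, which binds interferon-stimulated response elements and is best known for inducing antiviral genes. The set described here holds peaks with lower signal in the IFN-β group than in the control group, by the threshold given above.

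The cell identity was checked against marker promoters. Of 10 colon epithelial markers, 6 (EPCAM, CDH1, KRT8, KRT18, KRT19 and CDX2) had a promoter peak, and CDX1, VIL1, CEACAM5 and LGR5 had none. Among markers of other cell types, 0 of 4 leukocyte, 1 of 4 fibroblast (COL1A1), 0 of 2 hepatocyte and 1 of 2 neuron markers (SYT1) had one, and their part in the results was not tested. The table gives mean normalized reads per group and no value per library, so how far the 2 libraries of each group differed is unknown here, and no difference below was tested. Summed over all peaks, the mean normalized reads were 540427 in the IFN-β group and 876825 in the control group, a log2 ratio of -0.70. A lower H3K27ac level throughout and a scaling difference between the groups' libraries cannot be told apart from these values, so each difference is set beside the median of all well-covered peaks, -0.74.

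The sequences below show what the DNA under these peaks looks like, in GRCh38 and written 5′ to 3′. The first 7 lie upstream of the RefSeq gene start and inside the peak, trimmed to leave out annotated exons. They belong to CRTAP, CDKN2D and BCOR, among the lowest promoter peaks, and to the cell cycle genes CDC25A, CCNA2, CENPF and KIF4A. Capitals mark, on either strand, the GC box (GGGCGG), the CCAAT box (CCAAT) and the cell cycle homology region, CHR (TTTGAA). These genes were picked after their values and sequences were seen, since CDK1 and BUB1B gave no exon-free window or no match, and they stand as examples.
CRTAP, chr3:33113764-33114013, plus strand: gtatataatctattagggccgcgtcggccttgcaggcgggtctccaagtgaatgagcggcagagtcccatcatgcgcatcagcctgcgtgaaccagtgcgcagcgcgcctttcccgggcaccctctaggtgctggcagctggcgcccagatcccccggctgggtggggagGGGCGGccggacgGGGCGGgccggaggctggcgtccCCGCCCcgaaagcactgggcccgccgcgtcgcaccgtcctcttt
CDKN2D, chr19:10569060-10569229, minus strand: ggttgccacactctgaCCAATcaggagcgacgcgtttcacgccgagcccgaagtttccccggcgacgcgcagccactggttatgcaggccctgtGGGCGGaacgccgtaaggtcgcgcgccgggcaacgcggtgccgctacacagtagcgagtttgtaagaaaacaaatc
BCOR, chrX:40146634-40146883, minus strand: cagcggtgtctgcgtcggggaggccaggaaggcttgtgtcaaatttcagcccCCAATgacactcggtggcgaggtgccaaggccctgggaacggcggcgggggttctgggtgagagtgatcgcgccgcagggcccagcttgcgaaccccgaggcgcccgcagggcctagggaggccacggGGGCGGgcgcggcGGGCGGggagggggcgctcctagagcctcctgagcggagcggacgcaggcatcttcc
CDC25A, chr3:48188418-48188599, minus strand: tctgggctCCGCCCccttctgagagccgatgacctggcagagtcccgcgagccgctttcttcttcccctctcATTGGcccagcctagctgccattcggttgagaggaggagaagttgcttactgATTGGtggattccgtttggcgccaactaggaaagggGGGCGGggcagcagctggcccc
CCNA2, chr4:121823884-121824122, minus strand: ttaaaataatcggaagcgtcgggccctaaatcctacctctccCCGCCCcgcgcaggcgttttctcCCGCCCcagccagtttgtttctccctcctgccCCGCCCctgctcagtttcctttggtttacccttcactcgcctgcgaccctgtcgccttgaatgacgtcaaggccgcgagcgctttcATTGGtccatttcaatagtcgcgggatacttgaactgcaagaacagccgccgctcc
CENPF, chr1:214602945-214603184, plus strand: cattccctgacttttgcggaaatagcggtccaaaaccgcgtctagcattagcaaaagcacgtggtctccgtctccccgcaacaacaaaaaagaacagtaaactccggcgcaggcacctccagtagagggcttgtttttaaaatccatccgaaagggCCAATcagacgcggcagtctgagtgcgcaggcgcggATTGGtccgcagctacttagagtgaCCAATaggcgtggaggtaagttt
KIF4A, chrX:70289946-70290103, plus strand: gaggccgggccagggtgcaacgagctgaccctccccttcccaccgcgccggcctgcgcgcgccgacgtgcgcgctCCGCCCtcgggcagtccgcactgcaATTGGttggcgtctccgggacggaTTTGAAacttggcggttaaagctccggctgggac

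All but CENPF of the 7 held a GC box, with 3 matches each in CRTAP and CCNA2. A CCAAT box occurred in all of them except CRTAP, with 3 matches in CENPF. The exact CHR letters TTTGAA occurred only in KIF4A, and near matches were not counted. In the 250 bases upstream of all 35116 RefSeq promoters of the reference table, 42.6% held the GC box, 32.0% the CCAAT box and 13.3% the CHR letters. The 7 windows were picked after being seen and are 158 to 250 bases long, so their matches cannot be weighed against these shares. A match to these letters describes the window and is not evidence of a bound factor.

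The next 3 sequences are the central 300 bases of distal peaks, on the plus strand, at 3 of the lowest distal positions that hold no exon. Capitals mark AP-1 (TGACTCA) and CHR (TTTGAA) letters on either strand.
SAE1 intron, chr19:47189675-47189974, plus strand: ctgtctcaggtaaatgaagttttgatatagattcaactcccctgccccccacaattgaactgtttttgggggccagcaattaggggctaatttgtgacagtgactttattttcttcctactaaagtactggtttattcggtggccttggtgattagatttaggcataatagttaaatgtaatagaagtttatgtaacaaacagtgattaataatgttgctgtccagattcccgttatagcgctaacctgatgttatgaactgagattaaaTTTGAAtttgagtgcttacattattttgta
Chromosome 5, far from genes, chr5:104512573-104512872, plus strand: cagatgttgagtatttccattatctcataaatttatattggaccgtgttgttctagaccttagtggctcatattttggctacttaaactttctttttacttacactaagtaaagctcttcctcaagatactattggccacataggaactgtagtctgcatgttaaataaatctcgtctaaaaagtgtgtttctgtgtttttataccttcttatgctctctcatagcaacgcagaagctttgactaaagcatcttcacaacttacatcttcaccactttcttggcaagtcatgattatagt
ECE1 intron, chr1:21324838-21325137, plus strand: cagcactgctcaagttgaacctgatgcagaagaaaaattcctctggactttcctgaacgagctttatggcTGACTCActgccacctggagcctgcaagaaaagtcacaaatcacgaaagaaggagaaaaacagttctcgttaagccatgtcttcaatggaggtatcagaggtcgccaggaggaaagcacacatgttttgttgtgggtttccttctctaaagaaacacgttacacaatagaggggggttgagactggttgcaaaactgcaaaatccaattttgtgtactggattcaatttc

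The ECE1 window held 1 AP-1 match and the SAE1 window 1 CHR match, and the chromosome 5 window held neither. In the same central window, 17.8% of the 1721 well-covered distal peaks held the AP-1 letters and 25.5% the CHR letters.

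Across the 245 peaks the difference ran from -1.71 to -1.2 with a median of -1.27, so the IFN-β mean was typically 41.5% of the control mean. Across the other well-covered peaks the median was -0.74, or 59.9% of control. Measured from the median of all well-covered peaks, the set had a median relative difference of -0.53 on the log2 scale, which is 69.3% of the typical IFN-β to control ratio.

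In mean normalized reads, the peaks held 16.7 to 112 reads (median 25.8) in the IFN-β group and 44.9 to 260 (median 62.2) in the control group. The other well-covered peaks had medians of 40.5 and 65.3. The medians of the selected and other peaks were closer in the control group than in the IFN-β group. The rule chose peaks by a low difference between these groups, so this contrast is tied to the selection and is a description only. Taking each mean as a count over 2 libraries, the standard error of the difference from counting alone was 0.24 at the median (0.12 to 0.29). The 95% counting interval stayed below -0.74 in 209 peaks and reached it in 36 (14.7%). These intervals cover counting error only, leave out the spread between cultures, and were computed on peaks chosen for low values. By the rule, every selected peak had a difference relative to that median of -0.46 or lower. The split into 209 and 36 therefore follows from the selection and the coverage, and gives no support to the differences.

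**Figure D1:**
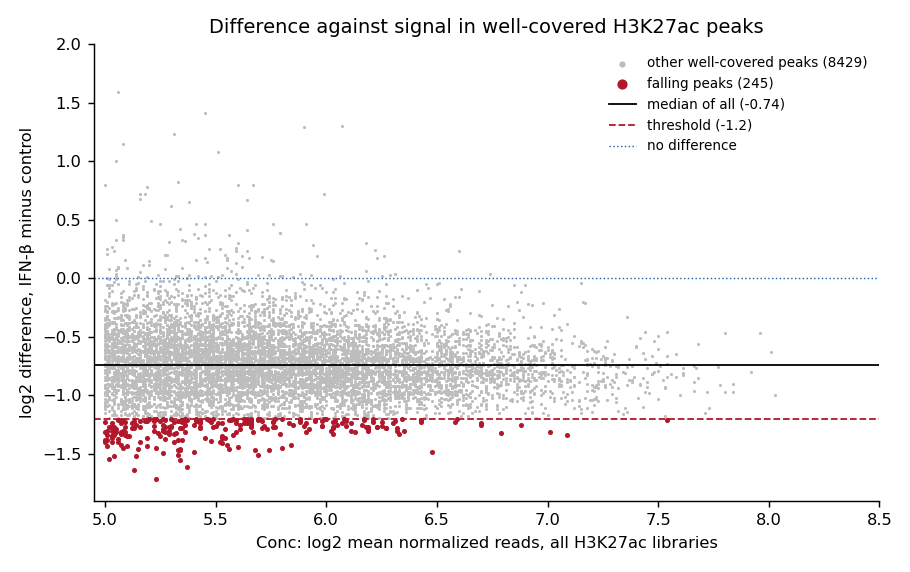
Log2 difference (IFN-β minus control) against Conc for the 8674 well-covered peaks, with the 245 selected peaks in red, the median of all peaks (-0.74) as a solid line and the threshold of -1.2 dashed. The cloud is centered below 0 and narrows toward high Conc, and 1 peak with Conc 10.22 and a difference of 11.39 lies outside the axes.

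The edge of the set was crowded. Exactly at -1.2 lay 27 peaks, while 348 further well-covered peaks lay between -1.19 and -1.1. Just inside were the promoter peaks of GATAD2B, CEP350 and CHST3 at -1.2, with control and IFN-β means of 52.3 and 22.8, 57.3 and 24.9, and 62.7 and 27.3 reads. Just outside were TMEM201, XKR8 and SLC6A9 at -1.19, with 50.9 and 22.3, 88.0 and 38.6, and 108 and 47.2 reads. At the Conc minimum, FBRSL1 (-1.40), CARMIL1 (-1.31) and RAD51D (-1.23) were inside at a Conc of 5, and a TBC1D16 intron (-1.75), GALK1 (-1.47) and FAM193B (-1.23) were outside at 4.99. Peaks on either side of a limit thus had nearly the same values.

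The share of well-covered peaks in the set depended on signal. It was 4.70% (95% exact binomial interval 3.68 to 5.91) at Conc 5 to 5.25, 2.55% (1.98 to 3.22) at 5.5 to 6, and 0.725% (0.266 to 1.57) at 6.5 to 7. At Conc 7 or more it was 1.15% (0.238 to 3.32), from 3 of 261 peaks. The median Conc was 5.47 in the set and 5.73 in the other peaks. The spread of the difference fell along the same axis, from a quartile-based SD of 0.29 in the lowest interval to 0.18 at Conc 7 or more, while the median counting error fell from 0.25 to 0.12. The typical difference itself moved little, from -0.71 to -0.82. The part of the wider spread at low signal in the membership was not tested. The intervals of these shares treat the peaks as independent and leave out the spread between cultures.

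**Figure D2:**
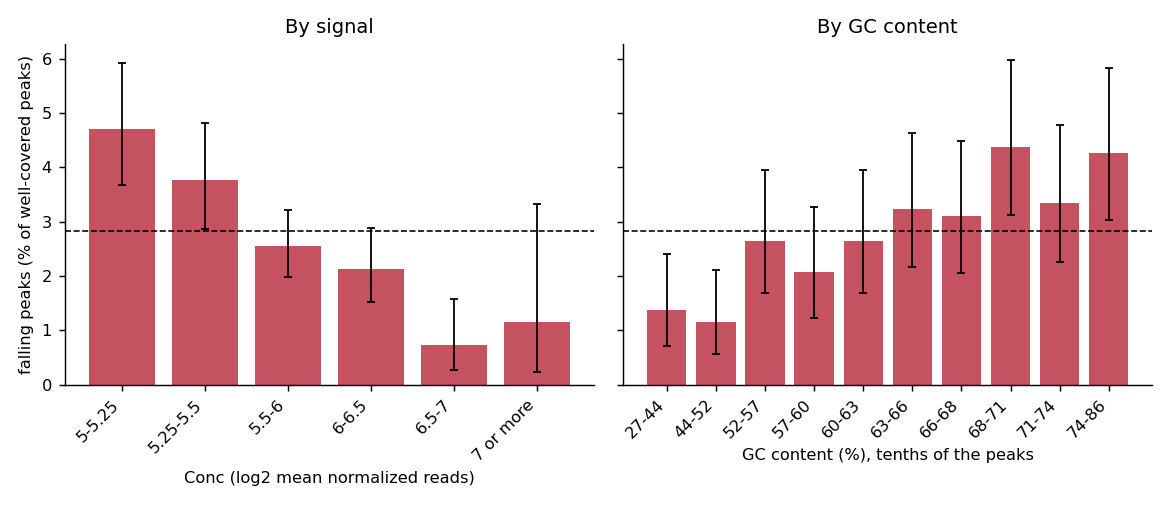
Percentage of well-covered peaks that belong to the set, by Conc interval (left) and by 10 equal parts of GC content (right), with 95% exact binomial intervals and the overall 2.82% dashed. The share is highest at low Conc (4.70% against 0.725% at 6.5 to 7 and 1.15% at 7 or more). By GC content it is lowest in the 2 least GC-rich parts (1.38% and 1.15%).

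Promoters made up most of the set. A promoter peak was taken as one whose center lies within 1 kb of a protein-coding gene start, a flanking peak as one within 5 kb, and a distal peak as one farther away. Of the 245 peaks, 204 (83.3%, 95% exact binomial interval 78.0 to 87.7) were promoter peaks, against 75.0% (74.0 to 75.9) of the other well-covered peaks. Flanking peaks were 4 (1.63%) against 5.05%. Distal peaks were 37 (15.1%, 10.9 to 20.2) against 20.0% (19.1 to 20.8). These intervals treat the peaks as independent and leave out the spread between cultures, so they are no test of a difference.

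Seen the other way, 3.13% of 6523 promoter peaks, 0.930% of 430 flanking peaks and 2.15% of 1721 distal peaks were in the set. The classes already differed as a whole, with median differences of -0.78, -0.66 and -0.61. The higher promoter share was reversed when the differences were first centered within 10 equal parts of GC content. There, 63.6% of the selected and 75.5% of the other peaks were promoters. It was absent when the Conc minimum was 4, where the shares were 67.4% and 67.3%.

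The peaks at the other end looked different. Peaks as far above the median as the set was below it, at -0.28 or more, numbered 501 (5.78%), of which 35.9% were promoters and 52.9% distal, with a median GC content of 46.9%. That end includes every peak with a difference above 0.

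The selected peaks were rich in G and C. Within 500 bp of the center their median GC content was 66.2%, against 62.8% in the other well-covered peaks, and the ratio of observed to expected CpG was 0.80 against 0.77. The gap was present within each class. Promoter peaks of the set had a median of 67.9% against 65.3%, and distal peaks had 51.8% against 46.6%. Over 10 equal parts of GC content, the share of peaks in the set was 1.38% and 1.15% in the 2 lowest parts and 4.38%, 3.34% and 4.26% in the 3 highest. The median difference of all peaks ran the same way, from -0.52 in the lowest part to -0.84 in the highest. When each part was centered on its own median, 228 peaks met the rule, 168 of them shared with the set, and their median GC content was 58.5%, below the 63.1% of the other peaks.

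**Figure D3:**
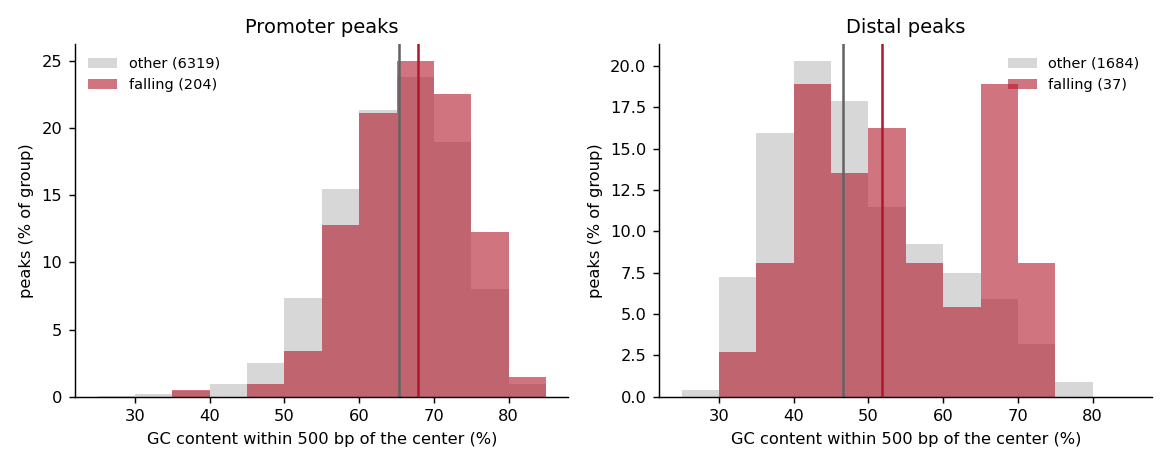
GC content within 500 bp of the peak center for promoter peaks (left, 204 selected in red, 6319 other in grey) and distal peaks (right, 37 selected, 1684 other), as a percentage of each group per bar, with vertical lines at the medians. The selected peaks are shifted to higher GC content in both panels, 67.9% against 65.3% at promoters and 51.8% against 46.6% at distal positions.

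Peak shape and neighbourhood gave smaller contrasts. Peaks wider than 1000 bp were 6.94% of the set and 9.42% of the others. Starts on both strands within 1 kb were found at 10.8% of the set's promoter peaks and 16.6% of the other promoter peaks. A different well-covered peak within 10 kb was present for 35 of the 245 (14.3%) and for 20.3% of the other peaks. Of the 35 neighbours 0 belonged to the set, against 1.93% of the neighbours of other peaks, and 35 are too few to show a difference of that size. The neighbours' median difference was -0.85, with 24 of 35 (68.6%) below the median of all peaks, while neighbours of other peaks had -0.71 and 44.9%. All peaks, neighbours or not, come from the same libraries, and the cause of the neighbours' lower median was not tested.

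By chromosome, the share of well-covered peaks in the set ran from 0.840% on chromosome 18 to 4.79% on chromosome 9, with 4.75% on chromosome 16 and 4.78% on chromosome 22.

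The lowest promoter peak was at RRS1, a ribosome biogenesis factor (chr8:66429006-66430006, center in the exon), with 57.7 mean normalized reads in the control group and 17.6 in the IFN-β group, a difference of -1.71 (counting SE 0.28). CRTAP, a component of the collagen prolyl hydroxylation complex (chr3:33113757-33114757, exon), followed with 53.1 and 17.0 reads (-1.64). ZNF618, a zinc finger protein gene (chr9:113876150-113877150, intron), had 62.2 and 20.4 reads (-1.61). These 3 kept 30.6%, 32.1% and 32.8% of the control signal, where the typical well-covered peak kept 59.9%.

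The peak over the starts of HEXD, a hexosaminidase, and OGFOD3 had 60.5 and 20.7 reads (-1.55), and its signal cannot be divided between the genes. OBSL1, a cytoskeletal adaptor related to obscurin, had 48.5 and 16.7 reads (-1.54), the lowest IFN-β mean of the set. IARS2, the mitochondrial isoleucyl-tRNA synthetase, had 52.3 and 18.3 (-1.52). KCTD13, an adaptor of cullin-3 ubiquitin ligases, and RAB2A, a small GTPase of transport between the endoplasmic reticulum and the Golgi, were both at -1.51, with 59.7 and 21.0 reads and with 76.6 and 26.9 reads. None of these genes is in the interferon-stimulated list used here.

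MTHFD1, an enzyme of folate one-carbon metabolism, had 56.5 and 20.1 reads (-1.49). CDKN2D, the p19 inhibitor of CDK4 and CDK6 (chr19:10568247-10569959), stood out in level, with 132 reads in the control group and 47.2 in the IFN-β group (-1.48, counting SE 0.17), the best covered of the 15. PRKAB2, a regulatory subunit of AMP-activated kinase, SLC30A1, a zinc exporter, and BCOR, a corepressor that partners BCL6 (chrX:40145920-40146920), were at -1.47. SSBP2, a single-stranded DNA binding protein of LDB1 complexes, and UBE3C, a ubiquitin ligase, closed the group at -1.46. Their control means ran from 59.3 to 75.1 reads and their IFN-β means from 21.4 to 27.1.

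**Figure D4:**
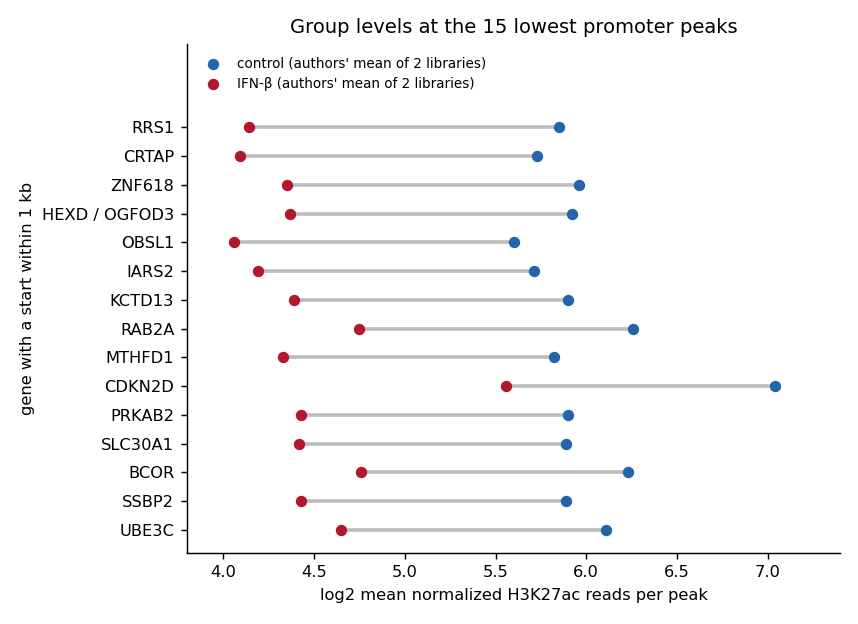
Log2 mean normalized H3K27ac reads in the control group (blue) and the IFN-β group (red), each the authors' mean of 2 libraries, at the 15 promoter peaks with the lowest difference. The gap is widest at RRS1 (5.85 to 4.14), and CDKN2D has the highest level in both groups (7.04 and 5.56).

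The 5 peaks of highest Conc had the smallest counting error of the named ones. H3-3B, which encodes histone H3.3, shares its peak with UNK and had 260 control and 112 IFN-β reads (-1.21, counting SE 0.12). A distal peak at chr17:81345153-81346153, 313 bp from the start of the long noncoding RNA RENO1, had 195 and 77.2 reads (-1.34). LMNB1, lamin B1 of the nuclear lamina, had 184 and 74.0 (-1.31), SLC25A10, the mitochondrial dicarboxylate carrier, had 165 and 69.6 (-1.25), and BIRC5, survivin of the chromosomal passenger complex, had 158 and 63.1 (-1.32). At these 5 the counting error was at most 0.15.

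In all, 236 protein-coding genes had a start within 1 kb of a selected peak, and 31 peaks had several such genes, so that the mark could not be assigned to one. The genes were read against 17 lists, which like the set itself were drawn up with earlier results of these data known, and the counts are a description. Each count is set beside 3.13%, the share among all well-covered promoter peaks, and each median beside their -0.78.

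Among these lists, genes of mitosis and chromosome segregation held the most peaks of the set, 8 of 58 promoter peaks (13.8%). The 95% exact binomial interval of this share was 6.15 to 25.4%. That interval treats the peaks as independent, and the list was drawn up with earlier results known, so it is no test of enrichment. The share depended on the threshold. It was 3.45% (2 of 58) at -1.3, against 1.12% of all well-covered promoter peaks, and 29.3% at -1.1, against 7.70%. CCNA2 (cyclin A2) and CDK1, the kinase that starts mitosis, had 93.1 and 38.3 reads (-1.28) and 99.7 and 40.2 reads (-1.31). At the kinetochore, CENPF had 71.5 and 29.7 (-1.27), and the checkpoint proteins BUB1B and MAD2L1 had 64.0 and 27.1 (-1.24) and 73.5 and 31.6 (-1.22). The chromokinesin KIF4A (46.5 and 19.3, -1.27), the spindle protein CKAP2 (82.7 and 35.3, -1.23) and BIRC5 completed the 8. The KIF4A peak is shared with PDZD11, whose start lies nearer its center.

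Most of the mitosis list lay below the promoter median. Its 58 promoter peaks ran from -1.32 to -0.45 with a median of -1.03, and 32 of them (55.2%) were at -1 or lower, against 16.3% of all well-covered promoter peaks. Below the promoter median lay 42 (72.4%) of the 58, against 49.0% of all well-covered promoter peaks. The share was higher in the lists of cell cycle control (74.2%) and of cohesin and CTCF (84.6%, 11 of 13), and lower in every other list. Its median GC content was 58.1%, lower than the 65.4% of all promoter peaks, and its median Conc was 6.04 against 5.74. The list's median relative to all promoter peaks was between -0.27 and -0.22 under every Conc minimum, pseudocount and centering tried. These settings reuse many of the same peaks, so their similar values are not independent. Among peaks with Conc between 4 and 5, the list's 7 promoter peaks had a median of -0.76, close to the -0.72 of all promoter peaks there. The list's share of members was 13.8% (8 of 58) after centering by GC content, where 2.22% of all promoter peaks met the rule. With 8 reads added to both means, 1 of the 58 (1.72%) met it, against 0.261% of all.

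The CHR letters, which in promoters of late cell cycle genes are bound by the DREAM and MuvB complexes, were found within 500 bp at 42 of the 58 (72.4%), against 26.2% of all well-covered promoter peaks. Among the 58 the median difference was -1.02 with the letters and -1.06 without, so within the list their presence went with no lower value. The CCAAT box was found at 44 of the 58 (75.9%), against 57.2% of all well-covered promoter peaks.

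Cell cycle control genes held 3 of 31 promoter peaks (9.68%), with a list median of -0.94. Besides CDKN2D these were LIN9, a MuvB subunit, with 98.4 and 39.9 reads (-1.3), and CDC25A, the phosphatase that activates cyclin-dependent kinases at entry to S phase, with 74.5 and 30.7 (-1.28). The neighbouring process of DNA replication held 0 of 47, with a median of -0.83, and cohesin and CTCF genes held 0 of 13, with a median of -0.92. DNA repair genes held 1 of 52, RAD51D (44.9 and 19.2 reads, -1.23), and their median of -0.71 was above that of all promoter peaks.

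Respiratory chain genes held 5 of 69 promoter peaks (7.25%) while their median of -0.79 was close to the -0.78 of all promoter peaks. The 5 were the ATP synthase subunits ATP5F1C (66.3 and 26.0 reads, -1.35) and ATP5MG (89.3 and 38.9, -1.2), the complex I subunits NDUFA6 (72.5 and 29.2, -1.31) and NDUFA11 (56.5 and 24.3, -1.22), and the complex III subunit UQCRQ (57.3 and 24.4, -1.23). All but NDUFA6 shared their peak with the start of another protein-coding gene, such as KIN at ATP5F1C and GDF9 at UQCRQ. The signal of those peaks cannot be divided between the genes. Vesicle traffic Rab genes held 2 of 22, RAB2A and RAB40C (104 and 44.3 reads, -1.23), with a median of -0.76. In both lists the medians lay near that of all promoter peaks.

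Nuclear lamina and pore genes held 2 of 42 (4.76%), LMNB1 and the nucleoporin gene NUP155 (57.3 and 23.6 reads, -1.28). Cytosolic ribosomal protein genes held 2 of 80 (2.50%), RPS10 (46.2 and 17.8, -1.38) and RPL11 (48.5 and 19.6, -1.31), a share near the background. NF-kappaB pathway genes held 1 of 19 (5.26%, list median -0.73; TRAF2, a signaling adaptor of tumor necrosis factor receptors, 74.0 and 30.9 reads, -1.26), and histone acetylation factors held 1 of 37 (2.70%, list median -0.75; BRD3, a bromodomain reader of acetylated histones, 66.3 and 28.6, -1.21). The lists of splicing factors (56 peaks), proteasome subunits (31), immediate early and AP-1 genes (32), Wnt targets (11) and p53 targets (25) held 0. These zeros hold for the listed genes only. The proteasome subunit gene PSMB10, outside that list, had a selected peak (68.6 and 28.8 reads, -1.25), shared with the start of ENSG00000261884.

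Interferon-stimulated genes also held 0 of 30 promoter peaks. Their median difference was 0.31, with a range of -0.99 to 1.59, and 1 of the 30 lay below the promoter median. The set and this list were at opposite ends of the table.

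**Figure D5:**
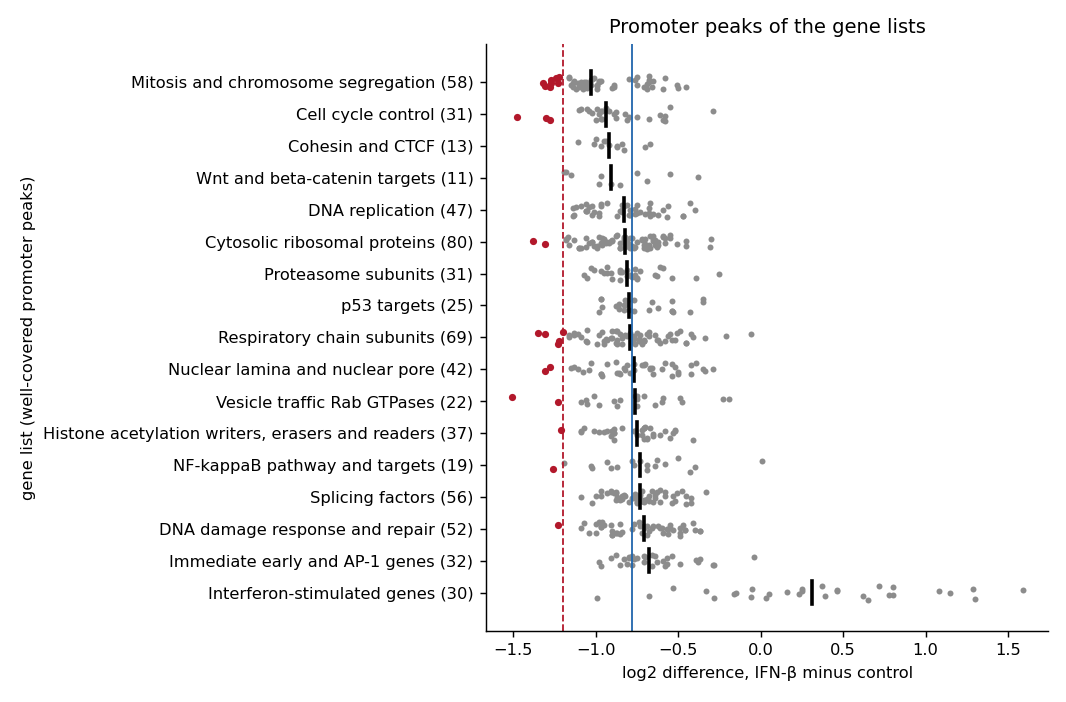
Log2 difference (IFN-β minus control) of each well-covered promoter peak of the 17 gene lists, with selected peaks in red, list medians as black bars, the median of all promoter peaks (-0.78) as a blue line and the threshold of -1.2 dashed. The mitosis list has the lowest median (-1.03) and the interferon-stimulated list the highest (0.31).

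The lowest distal peak lay in an intron of SAE1, a subunit of the SUMO activating enzyme, at chr19:47189324-47190324, with 48.8 control and 17.0 IFN-β reads (-1.52, counting SE 0.29). Next was a peak at chr7:101308123-101309123, 327 bp from the start of the long noncoding RNA EMSLR, with 62.2 and 22.3 reads (-1.48). The peak on chromosome 5 whose central sequence is given above (chr5:104512222-104513222) had 78.2 and 28.2 reads (-1.47). It lay 949932 bp from the nearest protein-coding start, that of NUDT12, and had the lowest GC content of the set, 32.0%.

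A peak at chr8:101002944-101003944 had 52.0 and 18.9 reads (-1.46), and one at chr16:2904662-2905662, 6407 bp from FLYWCH2, had 83.9 and 31.3 (-1.42). Introns of ECE1, the endothelin converting enzyme (52.0 and 19.7), and of USP46, a deubiquitinase (47.5 and 18.0), were both at -1.40. The last of the 8 lay 9921 bp from SDF2L1 on chromosome 22, 5 bp from the start of the annotated gene ENSG00000207751 (58.9 and 22.6 reads, -1.38). As a group, 12 of the 37 distal peaks (32.4%) had the start of a long noncoding RNA within 1 kb, against 17.0% of the other distal peaks, so part of the distal class lay at starts of noncoding genes.

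Short sequence motifs were counted within 500 bp of the center, on either strand. The GC box (GGGCGG) was found at 89.4% of the set and 80.6% of the other peaks. Within promoters the shares were 94.6% and 93.6%, and at distal peaks 59.5% and 38.0%. The AP-1 letters (TGACTCA) were found at 9.80% and 19.8%, with 5.88% and 10.1% at promoters and 32.4% and 49.7% at distal peaks. AP-1 letters were therefore less frequent in the set in both classes, beside its higher GC content.

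The ETS letters (CCGGAA) were found at 44.5% of the set and 47.9% of the others, with 47.1% and 56.3% at promoters and, in the other direction, 32.4% and 21.9% at distal peaks. The TATA box (TATAAA) was found at 14.3% of the set and 20.9% of the others. The interferon response core was found at 7.76% and 9.89%, the CCAAT box at 58.8% and 59.5%, the CHR letters at 28.6% and 33.5%, the YY1 letters (AAGATGGC) at 11.8% and 9.46%, and the E-box (CACGTG) at 23.7% and 20.4%. By class, the CHR letters were found at 55 of the set's 204 promoter peaks and 1654 of the 6319 other promoter peaks, which are like shares, and at 40.5% and 57.9% of the distal peaks. CRE (TGACGTCA), NRF1 and E2F (TTTGGCGC) letters were found at 3.67%, 2.04% and 2.45% of the set and 3.87%, 2.78% and 2.23% of the others.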

How the data were processed

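The authors prepared 2 IFN-β and 2 control H3K27ac libraries and 1 input library, and the labels do not say whether these came from separate cultures. Reads were processed with bcl2fastq 2.17, fastp 0.19.3, Bowtie2, SAMtools, MACS2, DiffBind and DESeq2, per the submitters' processing notes. The deposited table holds, for 20087 peaks, log2 values that the authors made with DiffBind, the log2 of mean normalized reads over all H3K27ac libraries (Conc) and over each group. Its columns of fold change, p-value and FDR hold the authors' own comparison and were not used. Of the columns, 3 were used, and no library has a value of its own.

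The difference is the IFN-β minus the control log2 value, rounded to 2 decimals. The table holds 51 peaks on other sequence names, of which 0 met both thresholds. Genes came from GENCODE release 44 and sequence from GRCh38 and RefSeq promoters (GRCh38.p14), with peak coordinates as the table gives them. Intervals for shares are exact (Clopper-Pearson), treat the peaks as independent, cover counting error only and are no test. Counting errors treat the normalized reads of 2 libraries as counts. The rule named the 15 promoter and 8 distal peaks with the lowest difference, the 5 of highest Conc, 3 on each side of each limit, and members in the lists. The members and lists were chosen with earlier results of these data known. Python 3.11.15, pandas 2.3.3, scipy 1.17.1, pysam 0.24.0 and matplotlib 3.10.9 were used, and the selection step was tested on simulated data.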

Additional observations from a re-analysis of the deposited data

How the results depend on the processing

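Of 69 recomputed values under other settings, 39 moved by less than their counting interval, or for a count by less than 1.5 times, and 30 moved further. With a Conc minimum of 4 the rule gave 622 peaks, a relative median difference of -0.58, 67.4% promoters (67.3% of the other peaks) and a GC content of 62.0% (60.6%), and with 6 it gave 49 peaks, -0.46, 89.8% (76.2%) and 67.4% (65.2%). A threshold of -1.1 gave 593 peaks (-0.44) with 29.3% of the mitosis and 7.70% of all promoter peaks, and -1.3 gave 91 peaks (-0.62) with 3.45% (2 of 58) and 1.12%. With 8 normalized reads added to each mean, 21 peaks were left (-0.58), with 1.72% of the mitosis peaks, since the addition shrinks every difference. Centering by 10 equal parts of GC content gave 63.6% promoters (75.5% of the other peaks) and a GC content of 58.5% (63.1%). The mean as the center gave -0.57. Counting starts of all annotated genes gave 89.0% promoters in the set and 79.7% in the other peaks, for which 500 bp gave 71.0% and 2 kb 76.7%. GC content within 250 bp was 70.2% and 65.8%, and over whole peaks 62.4% in the other peaks. The cause of the other shifts was not tested. The alternatives for the mitosis list were chosen after seeing the data.

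No paired analysis was possible because the columns carry group means and no library numbers, and for the same reason no library could be left out in turn. Normalized reads per peak, a median of 25.8 in the IFN-β group, limit what the 245 differences can show.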

Other observations

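Below the Conc minimum, the same difference was met by 377 of 5323 peaks with Conc between 4 and 5 (7.08%), of which 57.0% were promoters, with a median GC content of 59.0% and a median counting error of 0.36. Among promoter peaks in that range, 215 of 2898 met it, and their median difference was -0.72. The mitosis list held 1 of 7, SPC25, a kinetochore subunit of the NDC80 complex (-1.54), with a list median of -0.76. The cell cycle list held 2 of 12, CDKN2A (-1.74) and the MuvB subunit LIN37 (-1.31), with a list median of -0.61. DNA repair genes held 3 of 12, FANCF (-1.34), XPA (-1.27) and ERCC4 (-1.22), and proteasome subunits 2 of 5, PSMD10 (-1.23) and PSMA1 (-1.2). Single peaks came from cytosolic ribosomal proteins (RPL36A of 3 peaks, -1.52), NF-kappaB genes (NFKBIE of 8, -1.51), splicing factors (HNRNPUL1 of 9, -1.31), Rab genes (RAB18 of 16, -1.27) and immediate early and AP-1 genes (KLF2 of 8, -1.23). The remaining lists held 0, and the small numbers of peaks per list allow no reading of these shares.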
